A study of Mus musculus with 18 samples.

Results

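Immediate early response genes were examined in the hearts of irradiated mice. The set held 10 genes, Fos, Fosb, Jun, Junb, Egr1, Atf3, Ier2, Ier3, Nr4a1 and Dusp1, chosen by gene symbol among the 30072 genes deposited, and all 10 were among the 15054 genes with enough counts to be tested. RNA was sequenced from the septum of 18 CD-1 mice of at least 8 weeks of age and of both sexes, which the labels place on a mixed background, with 6 mice per group. Control mice received isoflurane anesthesia without irradiation, and the other mice received a single dose of 25 Gy under the same anesthesia and were studied 2 or 6 weeks later (2 or 6 weeks post-IR). The sample labels name the septum, gamma rays and untreated controls where the study's methods name ventricular tissue, an X-ray platform and a sham procedure, and they give no sex for single mice. The labels give no order or time of dissection. Each library was made from whole septum, so that every value is a mean over all its cells.

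Immediate early genes are transcribed within minutes of a stimulus, without new protein synthesis, and their transcripts decay quickly. Growth factors, stretch, adrenergic drive, calcium, stress kinases and the handling of tissue all raise them through mitogen-activated protein kinases (MAPKs), serum response factor and CREB, the cyclic AMP response element binding protein. Fos and Jun family proteins pair to form the transcription factor AP-1, Egr1 is a zinc finger factor, Nr4a1 is an orphan nuclear receptor, Atf3 is a stress-induced relative of CREB, and Dusp1 is a phosphatase that switches MAPKs off again.

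The start regions of these genes are shown because CREB and serum response factor are known to control many of them. In GENCODE M21 on GRCm38, Fos lies at chr12:85473890-85477273 on the plus strand, Atf3 at chr1:191170296-191218039 on the minus strand, Nr4a1 at chr15:101254269-101274795 on the plus strand and Dusp1 at chr17:26505590-26562128 on the minus strand. Egr1 apart, the other genes lie at chr7:19302696-19310051 (Fosb, minus), chr4:95049034-95052222 (Jun, minus), chr8:84974484-84978718 (Junb, minus), chr8:84661331-84662852 (Ier2, minus) and chr17:35821684-35822923 (Ier3, plus). RefSeq promoter windows (GRCm38.p6, from 250 bases before to 50 after the start) were found for 8 of the 10 genes, all except Egr1 and Ier2. The 250 bases before the start of Fos (chr12:85473640-85473889), Atf3 (chr1:191183334-191183583), Nr4a1 (chr15:101266596-101266845) and Dusp1 (chr17:26508473-26508722) read, 5′ to 3′ on the strand of the gene, with each match to a motif below in capitals:
Fos: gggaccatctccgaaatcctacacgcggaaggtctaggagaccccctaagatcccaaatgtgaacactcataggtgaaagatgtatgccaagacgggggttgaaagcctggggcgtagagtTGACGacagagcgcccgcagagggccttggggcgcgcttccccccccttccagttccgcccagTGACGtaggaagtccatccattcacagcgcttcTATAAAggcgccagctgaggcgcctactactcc
Atf3: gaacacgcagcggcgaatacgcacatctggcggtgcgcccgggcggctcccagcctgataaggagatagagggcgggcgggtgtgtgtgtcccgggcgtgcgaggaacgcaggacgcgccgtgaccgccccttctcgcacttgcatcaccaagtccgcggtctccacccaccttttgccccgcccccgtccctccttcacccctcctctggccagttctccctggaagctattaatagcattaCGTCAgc
Nr4a1: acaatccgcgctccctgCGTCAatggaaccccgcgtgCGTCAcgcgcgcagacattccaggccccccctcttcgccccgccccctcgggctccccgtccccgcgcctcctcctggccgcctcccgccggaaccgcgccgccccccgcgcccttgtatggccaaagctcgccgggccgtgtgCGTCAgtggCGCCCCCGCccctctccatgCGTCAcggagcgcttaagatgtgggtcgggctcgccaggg
Dusp1: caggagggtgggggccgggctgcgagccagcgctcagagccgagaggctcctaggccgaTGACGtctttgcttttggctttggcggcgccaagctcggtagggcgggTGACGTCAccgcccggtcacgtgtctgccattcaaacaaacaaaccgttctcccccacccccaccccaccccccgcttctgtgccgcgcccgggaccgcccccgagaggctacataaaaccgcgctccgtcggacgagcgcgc
The RefSeq starts of Atf3, Nr4a1 and Dusp1 lie inside the wider GENCODE spans of these genes, downstream of the outermost start. That of Junb lies upstream of its GENCODE start, the 250 bases before it being chr8:84978749-84978998. Positions below are counted from the RefSeq start. A cyclic AMP response element (CRE) half-site, TGACG on either strand, was found in the windows of 6 of the 8 genes (Fos, Fosb, Junb, Atf3, Nr4a1 and Dusp1), and in 20.8% of all 32851 windows. The full CRE, TGACGTCA, which contains the half-site on both strands, was found in 1 of the 8, Dusp1, at position -143 from the start, and in 1.79% of all windows. Nr4a1 carried 4 half-sites, Dusp1 carried 3 and Fos 2. A TATA box, TATAAA on either strand, was found in Fos at -33 and in Junb at position 0, against 13.6% of all windows. The EGR site GCGNGGGCG on either strand was found in Fosb at -50 and in Nr4a1 at -60, against 5.55% of windows. The CArG box bound by serum response factor and the AP-1 site TGANTCA were found in 0 of the 8 windows, against 1.63% and 7.81% of all. A match describes these letters in this window and not a bound site. Sites outside these windows, and those of Egr1 and Ier2, were not searched, so the absence of a match here says little about control by a factor. The part of either factor in the values below was not tested.

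Estimated counts summed to between 11522979 and 15501002 per mouse, and 3 counts, the floor used here for counting error alone, came to 0.194 to 0.26 CPM, the count scaled to library size. The share of counts from mitochondrially encoded genes had a median of 23.2% in control hearts, of 20.2% after 2 weeks and of 17.4% after 6 weeks (exact permutation test at 6 weeks, two-sided, P = 0.00433, adjusted over 39 such tests 0.0188), and the TMM scaling factors of the mice lay between 0.844 and 0.991 in controls and between 1.04 and 1.13 at 6 weeks. All 7 listed cardiomyocyte markers were present, and their sums had medians of 42810, 37090 and 30530 CPM in the 3 groups, from controls to 6 weeks post-IR. Summed macrophage markers were at 98.5, 135 and 195 CPM (6 weeks against controls, exact permutation test, P = 0.00216, adjusted 0.014). Atrial marker sums lay between 73.1 and 1582 CPM in single mice, and neutrophil marker sums stayed at or under 5.34 CPM.

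Per unit of length, the early genes covered a wide range of levels in control hearts. On the deposited scale of TPM, which corrects for transcript length and depth within a mouse, Dusp1 was highest, with a median of 81.3 TPM and a range of 46.0 to 94.97 over the 6 control mice, and it did not overlap Jun, the next gene, at a median of 27.5 (23.3 to 34.2). Below these the median levels were 21.1 TPM for Nr4a1, 19.9 for Egr1, 12.3 for Fos, 11.1 for Ier3, 7.53 for Junb, 6.8 for Ier2, 5.04 for Atf3 and 1.42 for Fosb. From Jun down to Fosb every gene overlapped its neighbour in this order, and the range of Egr1, which reached 49.0 TPM, also overlapped that of Dusp1.

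At 2 weeks post-IR no early gene passed the test against controls. With edgeR's quasi-likelihood test and Benjamini-Hochberg adjustment over all tested genes, 0 of 10 passed an adjusted P of 0.05 in either direction, 0 of 10 had an unadjusted P under 0.05, and DESeq2 and limma voom also called 0. Of all 15054 tested genes, 3.09% were called higher and 1.93% lower in this comparison, and 3074 had an unadjusted P under 0.05. The log2 fold changes ran from -0.81 (Nr4a1) to 0.54 (Ier3) with a median of -0.14, against a median of -0.0015 over all genes. They were negative for 7 of the 10 genes, for 5 with scaling by library size alone and for 4 with log2(TPM + 1), scalings under which the median of all genes moved to 0.15 and 0.18.

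At 6 weeks post-IR, Junb was the only early gene called. With edgeR, 1 of 10 was called higher, against 13.5% of all tested genes, and 0 of 10 lower, against 11.5%. The log2 fold changes of 9 of the 10 genes were positive (10 of 10 with TPM), with a median of 0.36 against -0.019 over all genes. Without mouse 5 at 6 weeks 7 of the 10 were positive, with a median of 0.22. Without control mouse 2 all 10 were positive, with a median of 0.48. Most of these genes varied together between mice, as described below, so their signs are not separate observations. Without TMM the median of all genes itself moved, to 0.24 with library size alone and 0.29 with log2(TPM + 1). Then 4 and 6 of the 10 genes were called, beside 5820 and 7472 of all 15054 tested genes in either direction. Under these scalings 9 of 10 genes still lay above the median of all genes, as with TMM. No early gene had 6 mice at 6 weeks that all lay above the controls, whereas 5.8% of tested genes did.

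**Figure D1:**
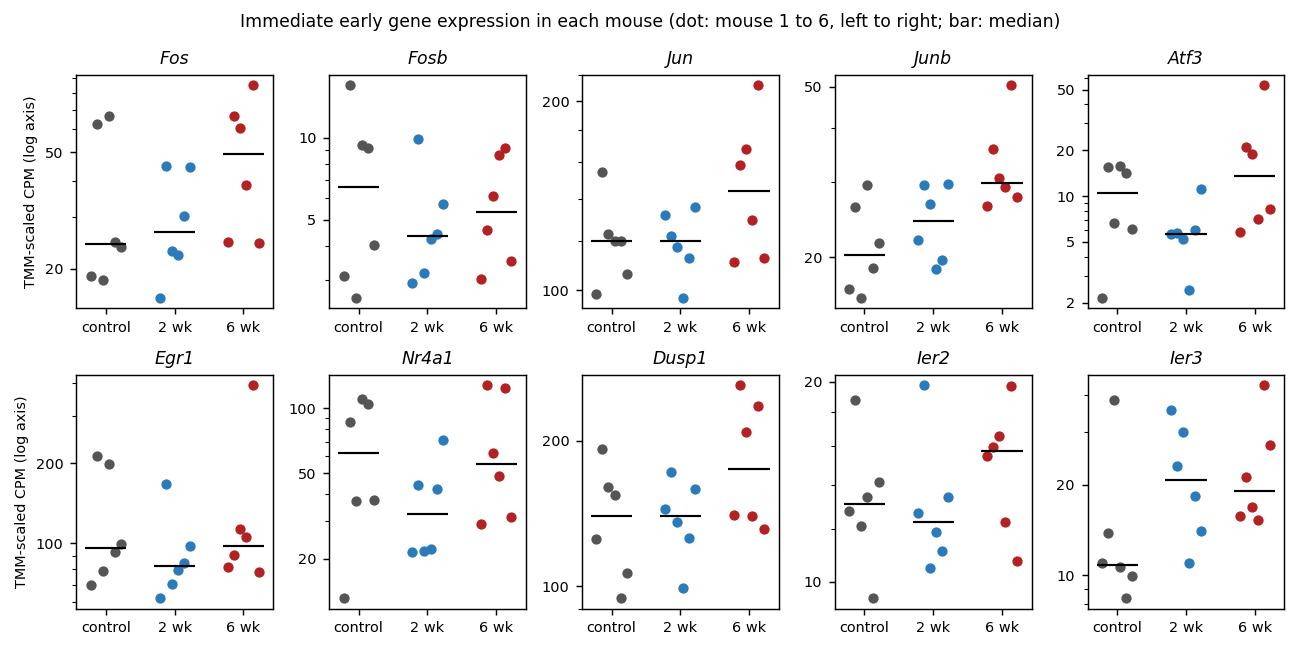
TMM-scaled CPM (log axis, a scale of its own for each gene) of the 10 early genes in every mouse, grey for controls, blue for 2 weeks and red for 6 weeks post-IR, with a bar at the group median and mice 1 to 6 from left to right. The groups overlap for every gene, and 1 mouse at 6 weeks, mouse 5, lies above the rest for Egr1 (392 CPM) and Atf3 (53.5 CPM).

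Junb encodes an AP-1 subunit that opposes Jun at many promoters. It was at 16.1 to 29.5 CPM in controls (median 20.3), 18.8 to 29.6 at 2 weeks (median 24.3) and 26.3 to 50.4 at 6 weeks (median 29.9). All 6 mice at 6 weeks lay above the control median and 3 lay above every control. The log2 fold change at 6 weeks was 0.63 (SE 0.18, edgeR adjusted P = 0.0148), and it stayed between 0.47 and 0.74 with adjusted P between 0.00522 and 0.0403 when any 1 mouse was left out. At 2 weeks it was 0.17 (SE 0.18, adjusted P = 0.63). In mice with high Y-linked expression, 3 in each group, the mean log2 CPM differed by 0.58 between 6 weeks and controls, and in those with low expression by 0.67 (exact permutation test, P = 0.3 and P = 0.1, where 0.1 is the least that 3 against 3 can give). Whether the whole septum held more macrophages or other cells with Junb, or more Junb RNA per cell, cannot be told apart, here or for the genes below.

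Jun, the transactivating partner in AP-1, was at 98.5 to 155 CPM in controls (median 120.0), 97.3 to 136 at 2 weeks (median 119.7) and 111 to 212 at 6 weeks (median 144). At 6 weeks 3 mice lay above every control and the other mice within the control range. The log2 fold change was 0.30 (SE 0.14), an interval of 2 SE from 0.017 to 0.59, and the adjusted P of 0.133 did not pass. With 1 mouse left out it ran from 0.17 (mouse 5 at 6 weeks) to 0.39 (control mouse 2). Jun and Dusp1 were the 2 early genes besides Junb with an unadjusted P under 0.05 at 6 weeks. Of all 15054 tested genes 5456 had one.

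Fos, the inducible partner of Jun, was at 18.3 to 66.8 CPM in controls (median 24.3), 15.9 to 44.8 at 2 weeks (median 26.7) and 24.5 to 84.9 at 6 weeks (median 49.6). Control mice 2 and 4 stood at 62.7 and 66.8 CPM and the other 4 controls at or under 24.8, so the control group alone spanned a factor of 3.64. The log2 fold changes were -0.25 (SE 0.39) at 2 weeks and 0.47 (SE 0.38, adjusted P = 0.405) at 6 weeks. With 1 mouse left out the latter ran from 0.26 (mouse 5 at 6 weeks) to 0.75 (control mouse 4). Fosb, its less abundant relative, was at 2.59 to 15.6 CPM in controls (median 6.6), 2.94 to 9.87 at 2 weeks (median 4.35) and 3.04 to 9.17 at 6 weeks (median 5.35). It was the only early gene with a negative log2 fold change at 6 weeks, -0.34 (SE 0.41, adjusted P = 0.594), a sign that turned with TPM and without control mouse 2 (0.019).

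Atf3 had the largest fold differences in both comparisons with 6 weeks, and the largest errors of the 10 genes in all 3. It was at 2.15 to 15.8 CPM in controls (median 10.4), 2.42 to 11.2 at 2 weeks (median 5.67) and 5.85 to 53.5 at 6 weeks (median 13.6). Of the mice at 6 weeks, mice 2, 3 and 5 lay above every control, at 20.9, 18.8 and 53.5 CPM, and the others between 5.85 and 8.28. The log2 fold change against controls was -0.75 (SE 0.55) at 2 weeks and 0.91 (SE 0.51, adjusted P = 0.216) at 6 weeks. Leaving out mouse 5 at 6 weeks brought the latter down to 0.27, and leaving out mouse 1 of that group brought it up to 1.10.

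Egr1 and Nr4a1 passed the test in no comparison, and their groups overlapped throughout. Egr1 was at 69.7 to 213 CPM in controls (median 96.2), 62.2 to 167 at 2 weeks (median 81.9) and 78.3 to 392 at 6 weeks (median 98.1). The other 5 mice at 6 weeks lay at or under 113 CPM, and without mouse 5 the log2 fold change turned from 0.19 (SE 0.40, adjusted P = 0.778) to -0.42. Nr4a1 was at 13.1 to 111 CPM in controls (median 61.8), 21.4 to 71.5 at 2 weeks (median 32.2) and 28.9 to 128 at 6 weeks (median 55.4). At 2 weeks 1 of 6 mice lay above the control median, and the log2 fold change of -0.81 (SE 0.48, adjusted P = 0.369) left an interval of 2 SE from -1.77 to 0.16. At 6 weeks the value was 0.12 (SE 0.48), with 2 mice above every control.

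Dusp1 was at 94.6 to 192 CPM in controls (median 139.8), 99.0 to 172 at 2 weeks (median 140.0) and 131 to 260 at 6 weeks (median 174). At 2 weeks the log2 fold change was 0.0034 (SE 0.19), and at 6 weeks it was 0.42 (SE 0.19, adjusted P = 0.128) with 3 mice above every control. Ier2, a small nuclear protein induced with Fos, was the steadiest of the low genes, at 9.45 to 18.8, 10.5 to 19.7 and 10.8 to 19.7 CPM in the 3 groups, and its intervals of 2 SE ran from -0.37 to 0.32 at 2 weeks and from -0.18 to 0.52 at 6 weeks. Ier3, a stress-induced gene that modulates apoptosis and ERK signalling, was at 8.39 to 38.2 CPM in controls (median 10.8), 10.99 to 35.5 at 2 weeks (median 20.7) and 15.3 to 42.9 at 6 weeks (median 19.1). All 6 mice at each time after irradiation lay above the control median, but control mouse 3, at 38.2 CPM, lay above all but 1 irradiated mouse. The log2 fold change of Ier3 at 6 weeks was 0.61 (SE 0.37, adjusted P = 0.261) with this mouse and 1.11 (adjusted P = 0.016) without it, and at 2 weeks it was 0.54 with it and 1.03 without it. Other omissions lowered it, to 0.34 at 6 weeks without mouse 5 of that group and to 0.35 at 2 weeks without mouse 1 of that group. The mean log2 CPM of Ier3 differed between 6 weeks and controls by 1.43 in the mice with high Y-linked expression and by -0.015 in those with low expression (exact permutation test, P = 0.1 and P = 1.0). Control mouse 3 was among the controls with low expression, and the value of -0.015 rests on it. The other controls with low expression lay at or under 13.83 CPM, and the mice with low expression at 6 weeks between 15.75 and 21.24 CPM. Whether the difference depended on Y-linked expression was not tested.

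Between 2 and 6 weeks post-IR all 10 early genes had a positive log2 fold change, from 0.073 (Ier3) to 1.66 (Atf3), and none was called. By edgeR 0 of 10 passed in either direction, against 3.31% of all tested genes called higher and 2.01% lower. An unadjusted P under 0.05 was found for 4 of 10, and for 3209 of all 15054 tested genes. DESeq2 called 1, Atf3, and limma voom called 0. The median over the early genes was 0.43 and over all genes -0.00075, of which 7497 of 15054 were positive. Without mouse 5 at 6 weeks the median over the early genes was 0.24, and 9 of 10 were positive. Without mouse 2 at 2 weeks the median was 0.50, and all 10 were positive. Atf3 stood at 1.66 (SE 0.53, adjusted P = 0.0772), with all 6 mice at 6 weeks above the median at 2 weeks and 3 above every mouse at 2 weeks. It fell to 1.02 without mouse 5 at 6 weeks and passed at 1.83 (adjusted P = 0.0475) without mouse 4. Ier3 turned negative, to -0.19, without mouse 5 at 6 weeks. The comparisons of each time with controls share the control mice and both times enter the third, so the 3 sets of values are not independent.

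**Figure D2:**
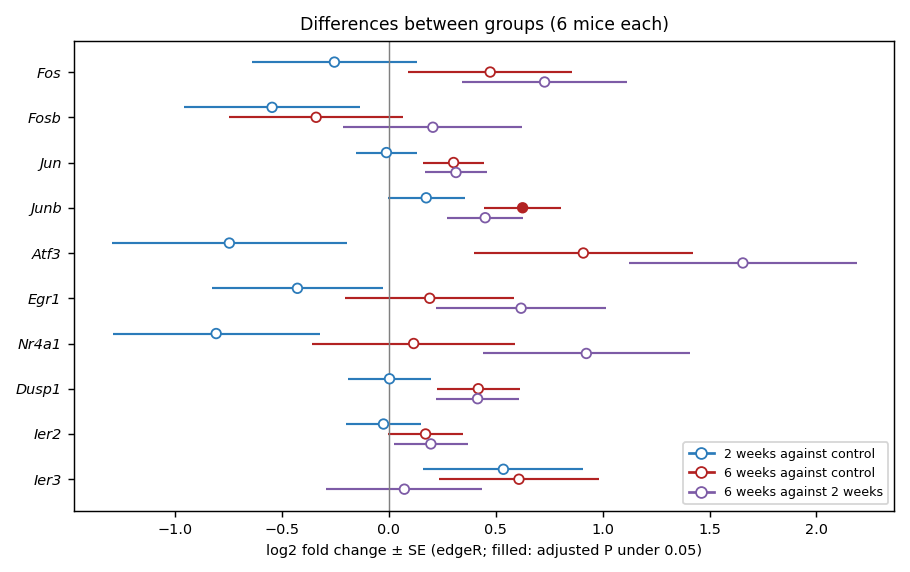
Log2 fold change with its SE (edgeR, 6 mice per group) for each early gene at 2 weeks against control (blue), 6 weeks against control (red) and 6 weeks against 2 weeks (purple), where a filled point has an adjusted P under 0.05. Junb at 6 weeks against control (0.63) is the only filled point, and all purple points lie to the right of 0 with TMM scaling of all mice.

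The early genes varied more between mice of one group than most genes did. The SD of log2 CPM within groups, pooled over the 3 groups, was 1.02 for Atf3, 0.969 for Nr4a1, 0.778 for Fosb, 0.739 for Fos, 0.704 for Egr1, 0.672 for Ier3, 0.373 for Dusp1, 0.329 for Junb, 0.317 for Ier2 and 0.267 for Jun. The median was 0.688 for the early genes and 0.245 for all tested genes. Each early gene was also set beside the 500 genes nearest to it in mean expression. Fos exceeded 99.6% of its neighbours, whose median SD was 0.161, and Nr4a1 exceeded 99.4%. The lowest was Ier2, above 79.4% of its neighbours, and 7 of the 10 genes lay above the 90th percentile. On the log2(TPM + 1) scale Nr4a1 (0.88) and Atf3 (0.831) were again the most variable.

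**Figure D3:**
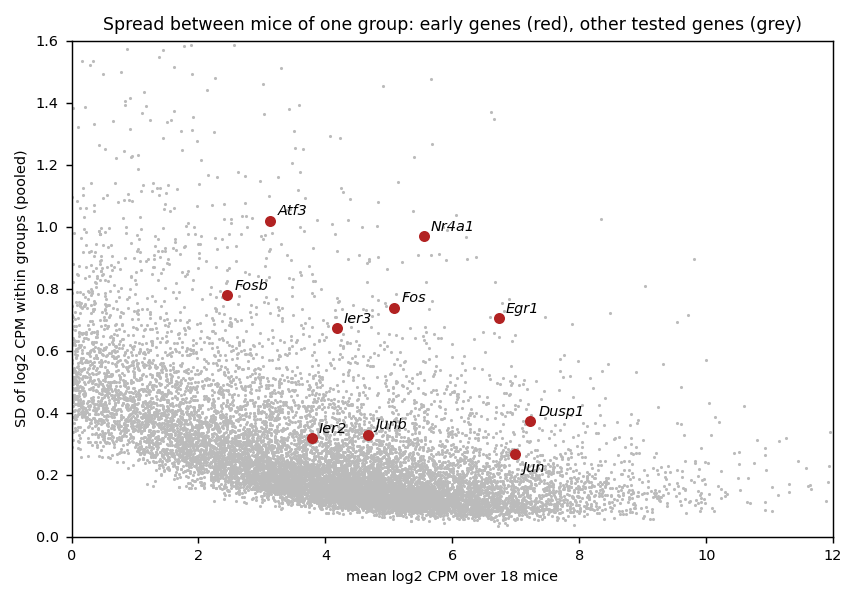
SD of log2 CPM within groups, pooled over the 3 groups, against mean log2 CPM over the 18 mice, for the early genes (red) and other tested genes with a mean of at least 1 CPM (grey). Atf3 (1.02) and Nr4a1 (0.969) lie highest among the early genes and Jun (0.267) lowest.

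This spread was present in controls as in irradiated mice. The median SD of the early genes was 0.736 in controls, 0.546 at 2 weeks and 0.61 at 6 weeks, against 0.248, 0.21 and 0.231 for all tested genes. The SD was larger in controls than at 2 weeks for 9 of the 10 genes, and for 62.7% of all genes. It was larger at 6 weeks than in controls for 4 of the 10, and for 44.3% of all. The range within controls reached a factor of 8.46 for Nr4a1 and 7.36 for Atf3, and at 6 weeks 9.15 for Atf3 and 5.01 for Egr1.

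Most early genes varied together from mouse to mouse. After the group mean was subtracted, the 45 pairs of early genes had a median Pearson r of 0.65 (Spearman rho 0.583) over the 18 mice, with a range from -0.25 to 0.897. For comparison, all pairs among 12868 tested genes had a median of -0.0005, and 0.712% of them reached 0.65. In a permutation test of each pair, adjusted over the 45 pairs, 30 passed for r, 27 for rho and 26 for both, but pairs that share a gene are not independent. The strongest pair was Atf3 with Nr4a1 (r = 0.897, rho = 0.872, permutation P = 5e-05 for both, adjusted for r 0.000563), and r was 0.87 without the 2 mice farthest out for the first gene. Jun with Atf3 (r = 0.876, permutation P = 3e-05, and rho = 0.814, P = 0.00033) and Fos with Junb (r = 0.838, permutation P = 9e-05, and rho = 0.791, P = 0.00061) followed. The relation was seen within each group, with a median r of 0.628 among the controls, 0.536 at 2 weeks and 0.762 at 6 weeks.

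Ier3 followed this pattern least over the 18 mice. Its 9 pairs had a median r of 0.142, from -0.25 with Fosb to 0.47 with Dusp1, whereas pairs without it had a median of 0.696. Within the 6-week group alone all 9 of its pairs were positive, from 0.28 to 0.794 with a median of 0.488, against medians of -0.2 in controls and 0.031 at 2 weeks. Mouse 5 at 6 weeks was the highest of its group for 8 of the 10 early genes, Ier3 among them. An r over 6 mice can rest on 1 such mouse. Mouse 6, the next highest for Ier3, was above its group mean for 1 early gene only, Ier3. Against the mean of the other 9 early genes, Ier3 had an r of 0.15 and every other gene one of at least 0.64, the highest being Fos at 0.871. Among the others the weakest pairs were Ier2 with Nr4a1 (r = 0.326, rho = 0.379, permutation P = 0.216, adjusted 0.256) and Fosb with Dusp1 (r = 0.333, rho = 0.284, permutation P = 0.216, adjusted 0.256).

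Single mice carried the common level. Control mouse 2 was above its group mean for 10 of 10 early genes and control mouse 4 for 9, while control mouse 1 was below it for all. At 2 weeks, mouse 2 was above the mean for 10 and mouse 6 for 9, while mouse 4 was below it for all. At 6 weeks, mouse 5 was above the mean for 10 and was the highest of its group for 8, while mice 1, 4 and 6 were above it for 1 gene each. The mice high for all the early genes occurred in the control group as in both irradiated groups.

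The mitochondrial share of the counts moved with this level. Control mouse 2 had the highest share of its group (25.0%) and control mouse 1 the lowest (19.8%). Mouse 4 at 2 weeks (17.8%) and mouse 1 at 6 weeks (16.5%) had the lowest of theirs, and mouse 5 at 6 weeks (20.1%) the highest. Some mice departed from this. Control mouse 4, above its group mean for 9 early genes, had 23.16% beside a group median of 23.2%. Mouse 4 at 6 weeks, above its group mean for 1 early gene, had 19.02% beside a group median of 17.41%. After subtraction of group means, the r of the mitochondrial percent with single early genes ran from 0.26 to 0.69, with a median of 0.628 and all 10 positive. With the mean of the early genes it was 0.734, or 0.612 without the 2 mice farthest out, which is given as a description with no test. When the early genes were regressed on the mitochondrial percent, the median r of their pairs was 0.449. The share was lower at 6 weeks than in controls, where 9 of 10 early genes had positive log2 fold changes with TMM and 10 with TPM. Its part in the differences between mice was not tested.

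Other features of the libraries had smaller r with the early genes. The r of their mean with the total count was -0.38 and with the scaling factor -0.43. It was 0.49 with smooth muscle and pericyte markers, -0.52 with skeletal muscle markers (-0.19 without the 2 mice farthest out), 0.21 with atrial markers, -0.12 with cardiomyocyte markers, 0.085 with macrophage markers and -0.096 with red cell markers. Of the sums regressed out singly, skeletal muscle markers left the lowest median r of the pairs, 0.597. The part of these features in the result was not tested.

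**Figure D4:**
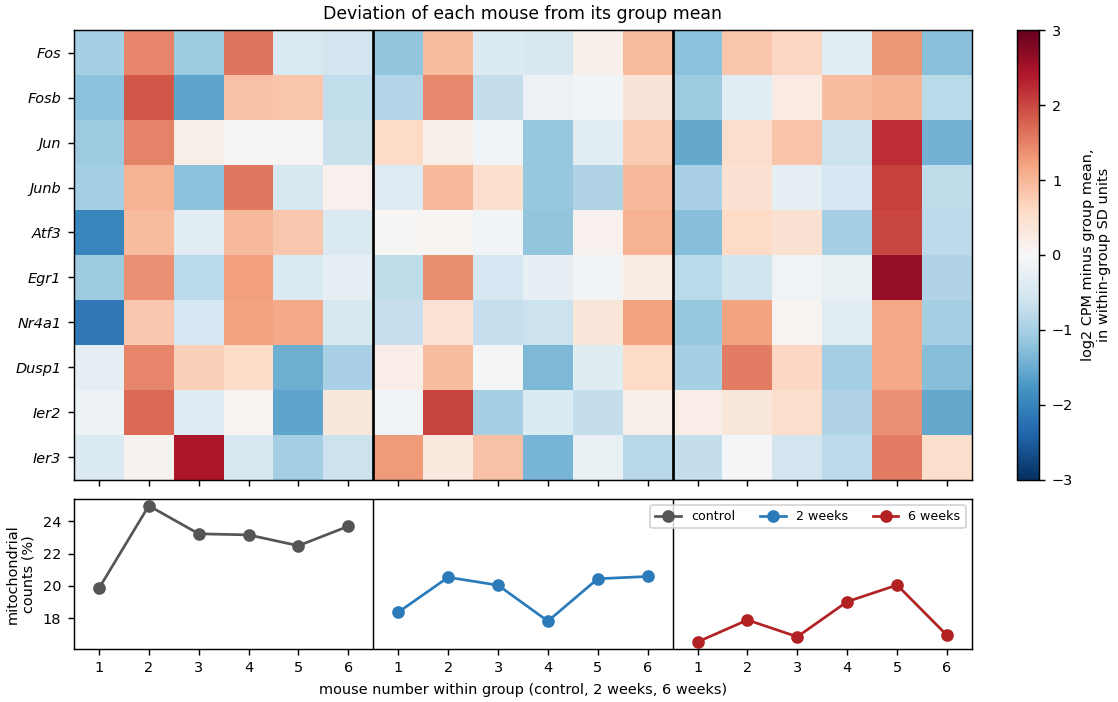
Upper panel, log2 CPM of each early gene in each mouse minus the mean of its group, in units of the within-group SD (red above, blue below), and lower panel, the percent of counts from mitochondrially encoded genes in the same mice. Columns of one colour mark control mouse 2, mouse 2 at 2 weeks and mouse 5 at 6 weeks as high for all 10 genes, and the row of Ier3 departs from the others.

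The genes most like the early genes were sought over 12769 other tested genes with symbols and a mean of at least 1 CPM, by the r of their deviations with the mean of the 10 over 18 mice. The 8 highest were Btg2 (0.876), Zfp36 (0.872), Egr3 (0.842), Ccn1 (0.827), Elob (0.826), Egr2 (0.816), Ifrd1 (0.807) and Adamts1 (0.807), given as a description with no test. Of these, 7 stood in the lists of related genes, and Elob did not. Btg2, an antiproliferative early gene, was at 55.7 to 121 CPM in controls and 65.6 to 278 at 6 weeks. Zfp36, which encodes a protein that destabilizes AU-rich messages, was at 36.9 to 69.0 CPM in controls and 38.2 to 122 at 6 weeks. Neither was called at 6 weeks (edgeR adjusted P = 0.0731 and 0.145), whereas Adamts1 (0.68, adjusted P = 0.00384) and Ifrd1 (0.27, adjusted P = 0.0492) were called higher.

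Related genes were taken from 4 lists of other early genes, their relatives and their inhibitors. Of 71 listed genes, 70 were tested, Egr4 being at 4 counts or fewer in every mouse. At 6 weeks 25 of the 70 were called higher, against 13.5% of all tested genes, and 0 lower, with a median log2 fold change of 0.32. Of the 70, 36 had an unadjusted P under 0.05, beside 5456 of all 15054 tested genes. DESeq2 called 30 of the 70, a count given without its share of all genes. At 2 weeks 4 of 70 were called, all higher, against 3.09% of all tested genes, and between the times 9 of 70, all higher, against 3.31%. The lists were drawn up with earlier results of these data known, so their counts are a description.

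Other AP-1 and small Maf genes had 7 of 10 called higher at 6 weeks, against 13.5% of all tested genes, and 0 lower, with all 10 positive. Maff, a small Maf factor that pairs with basic leucine zipper proteins, had a mean of 6.91 ± 2.17 CPM (SD, n = 6) in controls, against 8.7 ± 0.83 after 2 weeks and 13.5 ± 3.31 after 6 weeks, a log2 fold change of 0.96 at 6 weeks (SE 0.18, edgeR adjusted P = 0.00072). Batf2 rose by 1.13 on the log2 scale, with no overlap between the groups (adjusted P = 0.00223), and Batf3 was called higher (adjusted P = 0.0113) at a mean of 0.521 CPM, against a control mean of 0.165 that lies under the floor of 3 counts, so that no fold is given. Both factors are known from immune cells, and the macrophage markers given above were higher in the same group, a relation whose part in these values was not tested. Jund, the AP-1 subunit that is expressed steadily, rose by 0.39 (SE 0.11, adjusted P = 0.0111), from 61.2 ± 8.81 to 80.2 ± 9.2 CPM (n = 6).

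Other EGR and NR4A genes, the nearest relatives of Egr1 and Nr4a1, had 1 of 6 called higher at 6 weeks, against 13.5% of all tested genes, a count near that background. The gene was Nab1, a corepressor of EGR proteins (0.34, SE 0.10, edgeR adjusted P = 0.0201). Egr2 (1.06) and Egr3 (0.97) had larger differences and adjusted P values of 0.209 and 0.242. The highest mouse at 6 weeks was at 30.9 CPM for Egr2 and 32.1 for Egr3, far above the medians of 3.8 and 3.83, and the control medians were 2.64 and 3.55. The median over the list was -0.51 at 2 weeks and 0.36 at 6 weeks.

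Of 40 other early response genes, 14 were called higher at 6 weeks, against 13.5% of all tested genes, and 0 lower. At 2 weeks 4 were called, all higher, against 3.09% of all tested genes. Plk3, a stress-activated kinase, did not overlap between the groups in any of the 3 comparisons, with means of 4.25 ± 0.677, 6.87 ± 1.57 and 10.99 ± 3.06 CPM (SD, n = 6) from controls to 6 weeks. Its log2 fold changes were 0.70 (SE 0.19, edgeR adjusted P = 0.0375) and 1.37 (SE 0.18, adjusted P = 3.13e-05). Socs3, a feedback inhibitor of cytokine signalling, rose from 6.14 ± 1.86 to 9.18 ± 0.451 and 12.2 ± 2.04 CPM (n = 6), by 0.58 (adjusted P = 0.0433) and 0.996 (adjusted P = 0.000198). Ier5l rose by 0.39 and 0.52, and Zfp36l2, a relative of Zfp36, by 0.45 at 6 weeks.

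Of 14 MAPK phosphatases and Sprouty genes, which restrain MAPK signalling, 3 were called higher at 6 weeks and 0 lower, and at 2 weeks 0. The count at 6 weeks is not far above the 13.5% of all tested genes called higher. Dusp6, the ERK-specific relative of Dusp1, rose by 0.56 on the log2 scale (SE 0.12, edgeR adjusted P = 0.00155), Spry4 by 0.77 (SE 0.16, adjusted P = 0.00188) and Spred1 by 0.25 (SE 0.08, adjusted P = 0.0364).

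**Figure D5:**
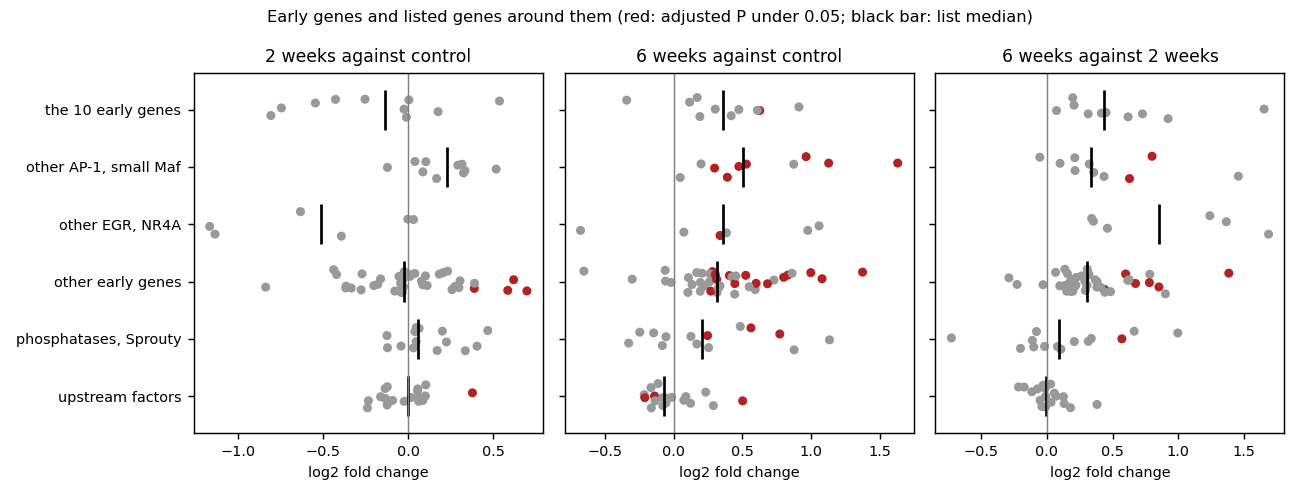
Log2 fold changes (TMM scaling, edgeR) of the 10 early genes and of 5 lists of related and upstream genes in the 3 comparisons, with called genes in red (adjusted P under 0.05) and the median of each list as a black bar. At 6 weeks against control 7 of 10 other AP-1 and small Maf genes and 14 of 40 other early genes are red, against 1 of the 10 early genes. Of all tested genes 13.5% were called higher there.

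Of the upstream kinases and factors, 1 of 18 was called higher at 6 weeks and 2 lower, against 13.5% and 11.5% of all tested genes. Mrtfa, a coactivator of serum response factor, rose by 0.38 (edgeR adjusted P = 0.0101) at 2 weeks and by 0.50 (adjusted P = 0.000142) at 6 weeks. Mef2d, a myocyte enhancer factor, fell by 0.21 on the log2 scale at 6 weeks (adjusted P = 0.0283). Of 6 heat shock genes edgeR called 0 in each comparison. An unadjusted P under 0.05 was found for 0 of them at 2 weeks, 0 at 6 weeks and 3 between the times. Of all 15054 tested genes, 3074, 5456 and 3209 had one, in the same order. Of 11 clock output genes edgeR called 1 at 6 weeks, Bhlhe40 (0.65, adjusted P = 0.000644). Of 8 genes listed for glucocorticoid response 1 was called at 6 weeks. The counts for clock and glucocorticoid genes stand near the 13.5% of all tested genes called higher. The gene called in the latter list was Cdkn1a, a p53 target that halts the cell cycle, at 7.44 ± 3.88 CPM in controls and 63.6 ± 18.8 at 6 weeks (n = 6). Sgk1 was called between 2 and 6 weeks (0.60, adjusted P = 0.0221).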

How the data were processed

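RNA of 18 mouse septa was sequenced by the authors on an Illumina NovaSeq, aligned to GRCm38.76 with STAR, quantified with Salmon 1.0 and summed to genes with tximport. The authors deposited estimated counts with decimals, without scaling between mice. The deposited TPM values come from the same quantification, scaled for length and depth within each mouse. Per the labels the processing tools were CASAVA 1.8 and Salmon 1.0.

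Counts were rounded, and a gene was kept where 6 or more mice reached 0.23 CPM before TMM scaling. Groups were compared in one edgeR 4.0.16 quasi-likelihood fit of all mice after TMM scaling (R 4.3.3), two-sided, with Benjamini-Hochberg adjustment over all tested genes of a comparison and a call at an adjusted P under 0.05. The script was first tested on simulated data. A log2 CPM used a prior count of 2, and intervals are 2 SE either side. Correlations between mice used 100000 permutations of single pairs, within groups and two-sided, and other values per mouse used the exact permutation test (scipy 1.17.1), whose least P for 6 against 6 is 0.00216. Each mouse was a replicate. Mice with the same replicate number did not deviate together. Alternatives were DESeq2 1.42.0, limma 3.58.1, other scalings, filters, units and covariates, and leaving out each mouse.

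The members, lists and motifs were chosen with earlier results of these data known. Genes named outside the members were the up to 4 of each list with the smallest adjusted P among those called, marker lists being given as sums, the 8 genes most alike, and Egr4, which had too few counts. One gene named by this rule is not reported here. Egr2 and Egr3 are among the latter 8. Coordinates are from GENCODE M21, whose assembly matches that of the authors.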

Additional observations from a re-analysis of the deposited data

Results flagged for a closer look

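In groups of 6 mice, 1 mouse stood apart from the others in 8 of the 84 groups examined, 28 genes in 3 groups each. This was by a Dixon test on CPM at the 95% level. Chance gives about 5% for separate groups of normally distributed values. Most early genes varied together, so the 84 groups are not separate, and no excess is read from the count. Among the early genes, mouse 5 at 6 weeks stood apart for Egr1 (392 CPM) and Atf3 (53.5 CPM), mouse 2 at 2 weeks for Egr1 (167 CPM) and Ier2 (19.7 CPM), and control mouse 3 for Ier3 (38.2 CPM). Among related genes, mouse 5 at 6 weeks stood apart for Plk3 (17.2 CPM) and Zfp36l2 (102 CPM), and mouse 6 at 2 weeks for Socs3 (10.04 CPM). Of these 8 values 4 belong to mouse 5 at 6 weeks, which was also the highest of its group for 8 of the 10 early genes and for the mitochondrial share. Leaving out this mouse moved the log2 fold change at 6 weeks to 0.27 for Atf3 and -0.42 for Egr1, and leaving out control mouse 3 moved that of Ier3 to 1.11.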

How the results depend on the processing

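The call of Junb at 6 weeks held under every alternative except a required absolute log2 fold change above 1 (0 early genes called), and with DESeq2, voom, other filters, upper quartile scaling, removal of mitochondrial genes or a Y-linked covariate 1 early gene was called there as well. At 6 weeks 4 early genes were called with library size alone and 6 with log2(TPM + 1) or log2(TPM + 0.1). Of all 15054 tested genes, 5820, 7472 and 7463 were called there in either direction under these scalings. Between 2 and 6 weeks 1 was called with DESeq2, 2 with library size alone and 2 with either TPM scale. All genes called there numbered 1143 with DESeq2, 1202 with library size, and 1073 and 751 with the TPM scales. With 1 mouse left out, 1 to 2 were called at 6 weeks and 0 to 1 between the times. Of the related genes, 4 at 2 weeks became 2 with voom, 10 with library size and 20 with either TPM scale. They became 0 with the fold limit and 1 to 6 with 1 mouse left out. All genes called at 2 weeks numbered 680 with voom, 1789 with library size, 2813 and 3026 with TPM and 136 with the fold limit. At 6 weeks, 25 became 46, 53 (either TPM scale) and 4 with library size, TPM and the fold limit. All genes called at 6 weeks numbered 5820 with library size, 7472 and 7463 with TPM and 896 with the fold limit. Between the times, 9 became 15 with DESeq2, 24 with library size, 5 without a filter, 25 with log2(TPM + 1) and 18 with log2(TPM + 0.1). They became 1 with the fold limit and 1 to 12 with 1 mouse left out. Of all genes, 567 of 21258 were called between the times without a filter and 172 of 15054 with the fold limit. With the replicate number as a replicate block, 0, 1 and 0 early genes were called in the 3 comparisons and 2, 25 and 5 related genes. Same-numbered mice correlated between -0.083 and 0.106, so the numbers were not taken to pair mice.

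Signs of single genes turned as follows. At 2 weeks Fos moved to 0.144 and 0.158 with the TPM scales, Jun to 0.143 with library size, 0.199 and 0.204 with TPM and 0.00526 with the replicate block, and Ier2 to 0.123, 0.169 and 0.193. At 6 weeks Fosb moved to 0.091 and 0.21 with TPM and Egr1 to -0.0011 with weighted voom. With 1 mouse left out the log2 fold changes at 2 weeks ran from -0.40 to 0.022 for Fos, -0.087 to 0.12 for Dusp1, -0.063 to 0.075 for Jun and -0.17 to 0.094 for Ier2. At 6 weeks they ran from -0.51 to 0.019 for Fosb, -0.14 to 0.34 for Nr4a1 and -0.42 to 0.41 for Egr1, and between the times from -0.19 to 0.26 for Ier3. The cause of these shifts was not tested. The median r of the pairs was 0.606 over TPM, 0.623 with library size alone, and 0.572 to 0.706 with 1 mouse left out. The last setting and the regression on the mitochondrial percent were chosen after seeing the data. With 6 mice a group, SE values near 0.5 for Atf3 and Nr4a1 limit what could be called.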
